A study of Macaca mulatta with 6 samples.

Results

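The 10 genes described here are the glucocorticoid receptor NR3C1, the mineralocorticoid receptor NR3C2, the cortisol-converting enzymes HSD11B1 and HSD11B2, and 6 genes that the glucocorticoid receptor is known to switch on (FKBP5, TSC22D3, ZBTB16, KLF9, SGK1 and DUSP1). All 10 were found by symbol among the 28536 genes of the count table. They were chosen because FKBP5, TSC22D3 and ZBTB16 had lower values in this same comparison, so the values of all 10 between the groups are given as a description and no p-value is given for any of them. RNA of rhesus monkey tracheal tissue was sequenced in 3 libraries of an Oxy@Lipo/Gel group and 3 libraries of a control group. The Oxy@Lipo/Gel animals were intubated under general anaesthesia and received an Oxy@Lipo/Gel-coated lubricant, and the control animals were treated with normal saline. Whether the control animals were anaesthetised or intubated is not said in the labels, which name no steroid, hormone level, age or clock time. Nothing states that each replicate was a separate animal, so the p-values cover only the spread between samples, part of which may be technical.

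Cortisol enters cells freely and binds the glucocorticoid receptor, which waits in the cytoplasm in a complex with HSP90 chaperones, moves into the nucleus and binds DNA at glucocorticoid response elements. The mineralocorticoid receptor binds cortisol as tightly as aldosterone, and in sodium-transporting epithelia HSD11B2 turns cortisol into inactive cortisone and so keeps it from that receptor. HSD11B1 runs the opposite reaction and makes cortisol from cortisone. In the airway, glucocorticoids are known for curbing inflammation, in part through targets such as TSC22D3 and DUSP1, and FKBP5 feeds back on the receptor by lowering its affinity for the hormone.

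Library totals ran from 20089109 to 23405294 counts in the Oxy@Lipo/Gel group and from 17097177 to 22194965 in the control group. Levels are given as CPM, counts scaled to a common library size after TMM normalization, which rescales library totals for differences in RNA composition. A count of 3 corresponded to 0.124 to 0.203 CPM. The labels also enter the catheter as the tissue and mention cell lines at extraction. All 6 multiciliated, all 6 cartilage and all 6 smooth muscle markers of an airway wall were detected, and the libraries differed in tissue makeup. Summed levels of 6 submucosal gland markers were 4290 to 14988 CPM in Oxy@Lipo/Gel and 266 to 531 CPM in control libraries, 6 cartilage markers 209 to 517 and 46.8 to 95.3 CPM, and 6 B-cell markers 19.8 to 60.1 and 3.32 to 3.80 CPM, with 6, 5 and 6 members that were higher without overlap, as were 12.2% of all tested genes. Summed smooth muscle markers were 1428, 11933 and 15979 CPM in Oxy@Lipo/Gel replicates 1, 2 and 3, against 677 to 2080 CPM in control libraries. Control replicate 2 had 11052 CPM of 5 basal epithelial markers, against 1472 to 6224 CPM in the other 5 libraries. It had 532 CPM of 6 multiciliated markers, against 1549 to 3503 CPM in the other 5 libraries. In control replicate 2, 1 gene without a name took 19.7% of the counts. The same gene was the highest in the other 5 libraries, at 7.73% to 10.4%. Control replicate 3 had 5454 CPM of 4 thyroid markers, where the other 5 libraries had 9.16 to 22.1 CPM.

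The glucocorticoid receptor gene itself differed little. NR3C1 was measured at 46.5, 55.5 and 56.9 CPM in Oxy@Lipo/Gel replicates 1, 2 and 3, against 64.0, 78.5 and 57.4 CPM in control replicates 1, 2 and 3. The groups did not overlap, but Oxy@Lipo/Gel replicate 3 and control replicate 3 were almost level as CPM. The log2 fold change, Oxy@Lipo/Gel over control throughout, was -0.33 ± 0.17 (SE, edgeR), and -0.20 without control replicate 2. NR3C2 was the steadier receptor gene, with 13.6, 14.1 and 14.5 CPM in Oxy@Lipo/Gel libraries and 12.2, 11.2 and 13.3 CPM in control libraries. Its log2 fold change was 0.20 ± 0.16 (SE). The NR3C2 groups did not overlap as CPM and did overlap as FPKM, the deposited fragment values per kilobase of gene length and library total. NR3C1 was further apart as FPKM, with 6.61 to 7.26 in Oxy@Lipo/Gel and 7.96 to 8.73 in control libraries. Within a group, the log2 level of NR3C2 had an SD of 0.0937, and only 4.18% of tested genes had a smaller one, while that of NR3C1 was 0.197 and the median of all tested genes 0.334.

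HSD11B1, the cortisol-producing enzyme, was near the limit of detection. It had 5, 3 and 3 counts in Oxy@Lipo/Gel libraries, against 8, 10 and 8 counts in control libraries, and was not tested for its low counts. The summed counts were 11 in Oxy@Lipo/Gel and 26 in control libraries. Their ratio, divided by the ratio of the summed TMM library sizes, was 0.374 with a 95% interval of 0.167 to 0.783 (exact), which covers counting error only. HSD11B2, the cortisol-inactivating enzyme, was well detected at 15.1, 11.8 and 10.7 CPM in Oxy@Lipo/Gel libraries, against 16.1, 5.90 and 16.5 CPM in control libraries. Both groups overlapped, and control replicate 2 was the lowest library. The log2 fold change of HSD11B2 was -0.04 ± 0.40 (SE). It was -0.38 without control replicate 2 and 0.17 without control replicate 3. Per gene length, HSD11B2 stood 60.6 to 85.6 times above HSD11B1 in Oxy@Lipo/Gel libraries and 7.95 to 42.4 times above it in control libraries. The 7.95 came from control replicate 2, where HSD11B2 was lowest, and without it the control libraries stood at 39.8 and 42.4. The ratio rests on 3 to 10 counts of HSD11B1 a library.

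The targets FKBP5, TSC22D3 and ZBTB16, for which the genes were chosen, were all lower in every Oxy@Lipo/Gel library than in any control library. FKBP5, a co-chaperone that lowers the receptor's hormone affinity, had 47.8, 47.6 and 38.7 CPM in Oxy@Lipo/Gel libraries, against 125, 169.8 and 144 CPM in control libraries. Its group means were 44.7 ± 5.22 and 146 ± 22.5 CPM (SD, n = 3 each), a log2 fold change of -1.71 ± 0.18 (SE). All 3 Oxy@Lipo/Gel libraries lay far below the lowest control library, and they spread less on the CPM scale. TSC22D3, also called GILZ, a leucine zipper protein that binds and restrains inflammatory transcription factors, had 84.8, 98.3 and 91.7 CPM in Oxy@Lipo/Gel libraries, against 235, 382 and 282 CPM in control libraries. The means were 91.6 ± 6.74 and 299 ± 75.1 CPM (SD, n = 3 each) and the log2 fold change was -1.71 ± 0.23 (SE), close to that of FKBP5. ZBTB16, a zinc finger transcription factor also called PLZF, had 36.5, 46.4 and 55.4 CPM in Oxy@Lipo/Gel libraries and 154, 316 and 191 CPM in control libraries. It had the largest log2 fold change of the 9 genes tested, -2.26 ± 0.32 (SE), and of these 3 targets the widest spread within groups, with a coefficient of variation of 20.5% in Oxy@Lipo/Gel and 38.4% in control libraries.

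Control replicate 2 was the highest library for all 3 of these targets as CPM. As FPKM, control replicate 3 was the highest for FKBP5, at 25.4 against 21.2 and 24.0 in control replicates 1 and 2. Without control replicate 2 the log2 fold changes were -1.59 for FKBP5, -1.50 for TSC22D3 and -1.91 for ZBTB16. Without control replicate 3, which held the thyroid markers, they were -1.73, -1.76 and -2.36, and without Oxy@Lipo/Gel replicate 1, whose smooth muscle level lay within the control range, they were -1.76, -1.66 and -2.12. The gland, cartilage and B-cell markers separated the same groups in the opposite direction, and their part in the lower target levels was not tested. In bulk tissue, fewer cells of a type and less RNA per cell cannot be told apart.

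**Figure D1:**
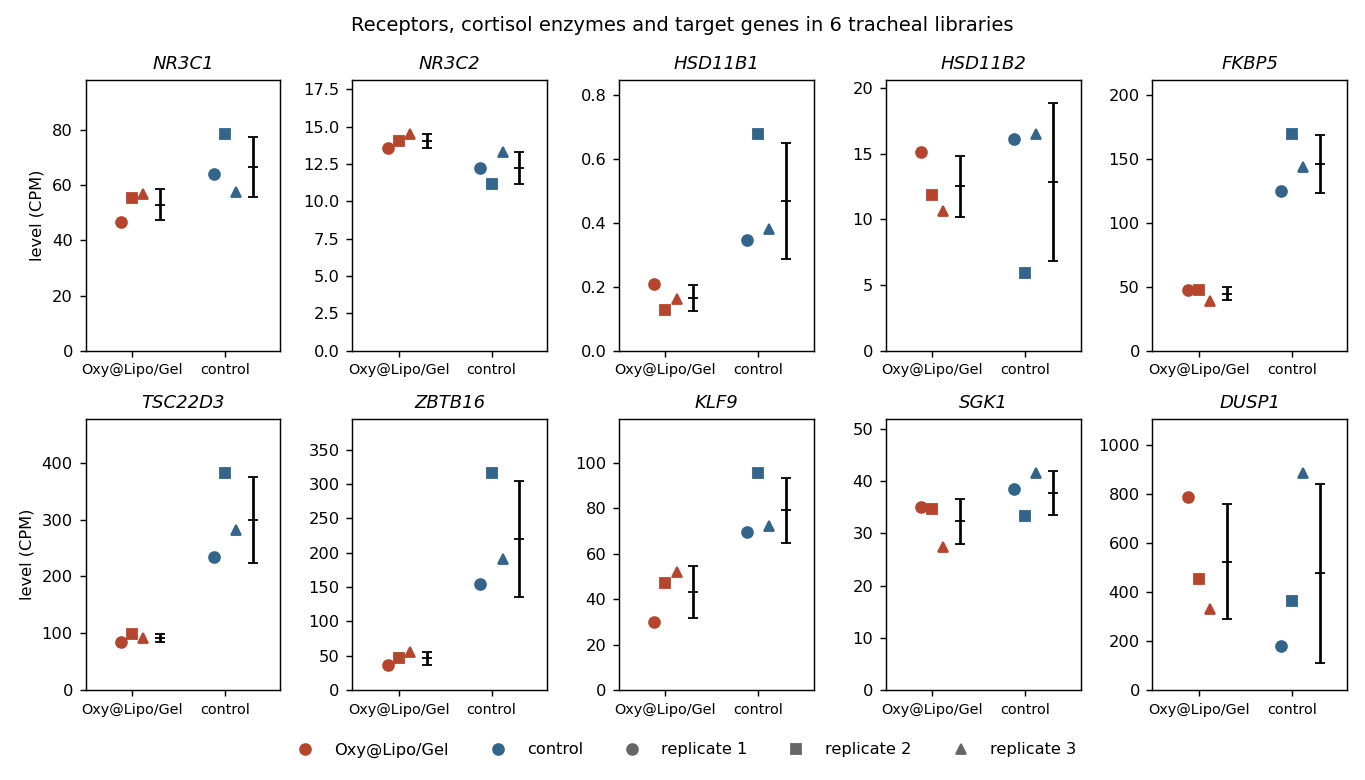
Level of each of the 10 genes in CPM (vertical axis, linear, from 0) in Oxy@Lipo/Gel and control libraries, with 1 symbol per library and bars for the mean and SD of 3 libraries. FKBP5, TSC22D3, ZBTB16, KLF9, NR3C1 and HSD11B1 lie lower in every Oxy@Lipo/Gel library than in any control library, and NR3C2 lies higher. SGK1, HSD11B2 and DUSP1 overlap. Of all tested genes 17.7% were lower and 12.2% higher without overlap.

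The other targets did not share one pattern. KLF9, a Krüppel-like zinc finger factor that responds to glucocorticoids and to the clock, had 30.1, 47.2 and 52.2 CPM in Oxy@Lipo/Gel libraries, against 69.7, 95.5 and 72.2 CPM in control libraries. The groups did not overlap and the log2 fold change was -0.87 ± 0.25 (SE). Oxy@Lipo/Gel replicate 1 was the lowest of these libraries, and the value without it was -0.67. SGK1, a kinase that raises sodium channel activity in epithelia and answers to both receptors, had 35.0, 34.6 and 27.3 CPM in Oxy@Lipo/Gel libraries and 38.5, 33.3 and 41.5 CPM in control libraries. These groups overlapped, with a log2 fold change of -0.23 ± 0.16 (SE).

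DUSP1, a phosphatase that switches off MAP kinases, is induced by glucocorticoids and also within minutes by stress and growth factors. It had 786, 453 and 332 CPM in Oxy@Lipo/Gel libraries, against 181, 364 and 885 CPM in control libraries. Control replicate 3 was the highest of all 6 libraries and control replicate 1 the lowest, so that the control range enclosed the Oxy@Lipo/Gel range. The within-group SD of DUSP1, 0.926 on the log2 scale, was above that of 89.9% of tested genes. Its log2 fold change was 0.14 ± 0.61 (SE), with 0.93 when control replicate 3 was left out and -0.28 when Oxy@Lipo/Gel replicate 1 was. FOS, an immediate early gene named here after its values were seen, had 1004, 473 and 485 CPM in Oxy@Lipo/Gel libraries and 56.2, 578 and 272 CPM in control libraries. Control replicate 1 was the lowest library for FOS as for DUSP1, while the highest library was Oxy@Lipo/Gel replicate 1 for FOS and control replicate 3 for DUSP1. The immediate early genes differed among themselves. Log2 fold changes were 1.11 for FOS, -0.31 for EGR1, 0.06 for JUNB, 0.11 for ATF3 and 1.16 for IER2. Only IER2 was higher without overlap, as were 12.2% of all tested genes. EGR1 and ATF3 were highest in control replicate 2.

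Of the 10 genes 9 passed the filter on low counts. With edgeR's quasi-likelihood test over all 18676 genes tested and an adjusted p of 0.05, 3 of the 9 were called lower (FKBP5, TSC22D3 and ZBTB16) and 0 higher, where 0.685% of all tested genes were called lower and 0.851% higher. The same 3 were called without Oxy@Lipo/Gel replicate 1 and also without control replicate 2. When any of the other 4 libraries was left out, 0 of the 9 were called. These 0 calls are not particular to the 9 genes. Over all tested genes, 0 were called without Oxy@Lipo/Gel replicate 2, and 0 when either control replicate 1 or control replicate 3 was dropped. Only 17 higher and 3 lower remained in the fit that lacked Oxy@Lipo/Gel replicate 3. Groups did not overlap for 5 of the 9 in the lower direction (NR3C1, FKBP5, TSC22D3, ZBTB16 and KLF9) and for 1 in the higher direction (NR3C2), as for 17.7% and 12.2% of all tested genes. The median log2 fold change was -0.33 over the 9 genes and -0.04 over all tested genes. As the genes were chosen from this comparison, nothing is read from these counts.

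Set against the receptor gene within each library, the 3 chosen targets were again lower in every Oxy@Lipo/Gel library. Per gene length, FKBP5 stood at 1.31, 1.09 and 0.864 times NR3C1 in Oxy@Lipo/Gel libraries, against 2.48, 2.75 and 3.19 times in control libraries. For TSC22D3 the ratio to NR3C1 averaged 4.00 ± 0.256 in Oxy@Lipo/Gel and 10.3 ± 1.61 in control libraries (SD, n = 3 each). For ZBTB16 it averaged 0.822 ± 0.0917 and 3.09 ± 0.766 (SD, n = 3 each). Such a ratio needs no library size, and none of these 3 ratios overlapped between groups. As the 3 targets were chosen for lower values here and NR3C1 differed little, lower ratios follow from the choice and are a description. NR3C1 exceeded NR3C2 in every library, by 2.92 to 3.36 times in Oxy@Lipo/Gel and by 3.68 to 5.97 times in control libraries.

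**Figure D2:**
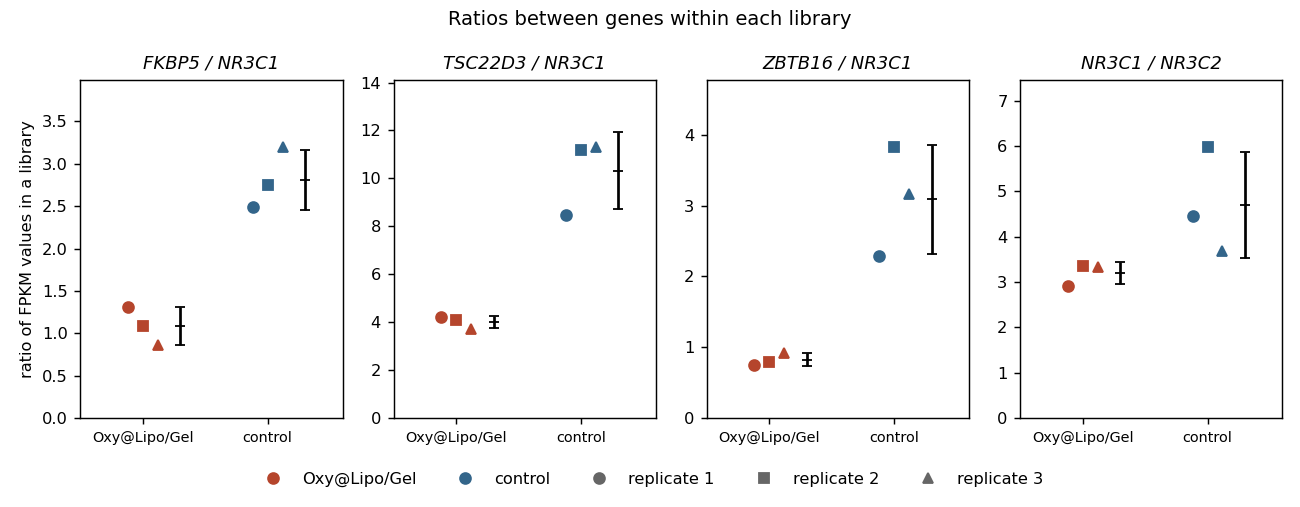
Ratio of FPKM values of 2 genes within a library (vertical axis, linear, from 0), for Oxy@Lipo/Gel and control libraries, with bars for the mean and SD of 3 libraries. FKBP5, TSC22D3 and ZBTB16 relative to NR3C1 lie lower in all Oxy@Lipo/Gel libraries, and NR3C1 relative to NR3C2 runs from 2.92 to 3.36 in Oxy@Lipo/Gel and from 3.68 to 5.97 in control libraries.

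Levels of the 10 genes per gene length differed widely. DUSP1 was highest, at 270.5 ± 144 FPKM in Oxy@Lipo/Gel and 240.2 ± 203 FPKM in control libraries (SD, n = 3 each), and TSC22D3 came next at 27.6 ± 2.16 and 86.7 ± 13.1 FPKM. In the Oxy@Lipo/Gel group DUSP1 was clear of TSC22D3 and TSC22D3 of KLF9, while KLF9, SGK1, FKBP5, NR3C1, HSD11B2 and ZBTB16, with means from 9.60 down to 5.67 FPKM, each overlapped the next in the order. In the control group DUSP1 and TSC22D3 overlapped, ZBTB16 and FKBP5 followed at 26.0 ± 6.93 and 23.6 ± 2.13 FPKM and overlapped each other, and KLF9 at 17.2 ± 1.13 FPKM was clear of FKBP5 and of SGK1. ZBTB16 thus ranked 8 of 10 in the Oxy@Lipo/Gel group and 3 of 10 in the control group. NR3C2, at 2.16 ± 0.112 and 1.85 ± 0.357 FPKM, and HSD11B1, at 0.0974 ± 0.0306 and 0.260 ± 0.0682 FPKM, were the 2 lowest in both groups, and neither overlapped the gene above it.

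**Figure D3:**
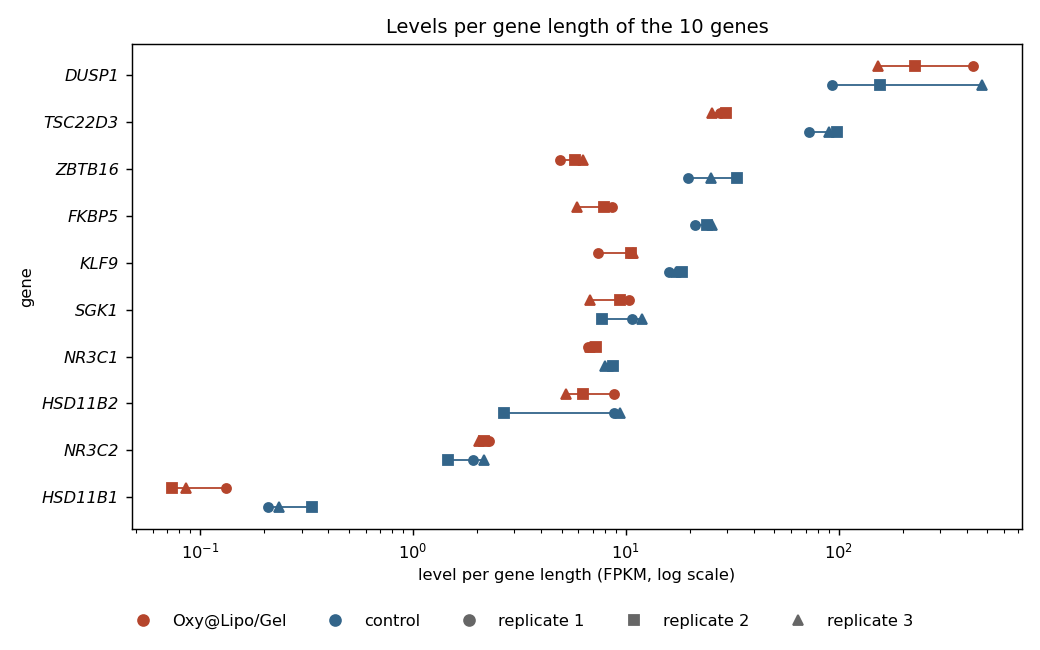
Level per gene length (horizontal axis, FPKM, log scale) of the 10 genes in each Oxy@Lipo/Gel and control library, ordered down the page by the control mean, with a line from the lowest to the highest library of a group. DUSP1 is the highest gene in both groups and HSD11B1 the lowest, and ZBTB16, at 5.67 FPKM on average in Oxy@Lipo/Gel and 26.0 FPKM in control libraries, shifts most.

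FKBP5 and TSC22D3 had profiles over the 6 libraries that were close to each other. Likeness was measured as the mean absolute difference, over 6 libraries, between the log2 CPM of 2 genes after each gene's own mean was subtracted, against 13228 genes with a symbol whose mean log2 CPM was 1 or more. The gene nearest to FKBP5 was TSC22D3, at a distance of 0.126, followed by ANGPTL4 (0.136), ABHD1 (0.140), EPHA7 (0.157) and DNASE1L2 (0.162). Nearest to TSC22D3 were EPHA7 (0.117), FKBP5 (0.126), DNASE1L2 (0.129), GUCA1B (0.153) and ROBO2 (0.180). ZBTB16 had other neighbours, with MAMDC4 at 0.0752, the clock gene PER3 at 0.140, the lipoprotein gene APOA1 at 0.186, ZDHHC2 at 0.212 and STON1 at 0.220. Among the 10 genes, FKBP5 lay at 0.330 from ZBTB16, 0.463 from KLF9, 0.738 from SGK1 and 1.08 from DUSP1. All 11 neighbours other than the chosen targets were lower in every Oxy@Lipo/Gel library than in any control library, with log2 fold changes from -2.24 to -1.44, so the distances rest in large part on the difference between the groups and are a description.

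Other genes induced by the glucocorticoid receptor were mostly at lower levels in the Oxy@Lipo/Gel libraries, and 1 passed the test. The genes here and in the lists below were chosen with earlier results of these data known, so their counts are a description. Whether the receptor or another regulator of these genes had a part in their levels was not tested. Of 24 tested genes of this list 1 fell, 0 rose and 23 did not pass (0.685% of all tested genes fell and 0.851% rose), with 19 log2 fold changes below 0, 5 above 0 and a median of -0.78 beside -0.04 for all tested genes. ANGPTL4, a secreted inhibitor of lipoprotein lipase, fell to 11.6, 11.9 and 8.03 CPM in Oxy@Lipo/Gel libraries, against 23.3, 33.6 and 29.7 CPM in control libraries (log2 fold change -1.46 ± 0.23, edgeR adjusted p = 0.0420). With any 1 library left out ANGPTL4 did not pass (edgeR adjusted p from 0.0502 to 0.194), and ERRFI1, a feedback inhibitor of the EGF receptor, passed without control replicate 2. NFKBIA, the inhibitor that holds NF-kappaB in the cytoplasm, had 67.0, 72.4 and 73.4 CPM in Oxy@Lipo/Gel libraries and 121, 149 and 189.6 CPM in control libraries (edgeR adjusted p = 0.0550). The transcription factor gene CEBPD had 142, 120.1 and 102 CPM in Oxy@Lipo/Gel libraries, against 235, 357 and 268 CPM in control libraries (edgeR adjusted p = 0.0611). FAM107A, an actin-associated protein induced by stress and glucocorticoids, had the lowest log2 fold change of the list at -2.81 ± 0.53 (SE), with 58.3, 44.0 and 85.5 CPM in Oxy@Lipo/Gel and 293, 779 and 243 CPM in control libraries (edgeR adjusted p = 0.0617). In this list 15 of the 24 genes did not overlap in the lower direction and 1 in the higher direction, beside 17.7% and 12.2% of all tested genes. DESeq2 called 14 of the 25 genes it adjusted in the list, 13 lower and 1 higher, where it called 11.8% of all genes it adjusted. The 1 higher was CD163, a haemoglobin scavenger receptor of macrophages, with 25.2, 23.1 and 14.0 CPM in Oxy@Lipo/Gel and 4.83, 2.10 and 10.0 CPM in control libraries (edgeR adjusted p = 0.130). Summed macrophage markers beside it ran from 55.8 to 90.2 CPM in Oxy@Lipo/Gel and from 33.6 to 84.4 CPM in control libraries, and their part in CD163 was not tested.

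Of 12 tested inflammatory genes known to be repressed by the receptor 0 passed edgeR in either direction, with 5 at an unadjusted p under 0.05, as were 23.3% of all tested genes. DESeq2 called 3 of 14 genes it adjusted in the list (11.8% of all), NOS2 and IRF1 lower and CXCL8 higher. Log2 fold changes were below 0 for 6 genes and above 0 for 6. NOS2, inducible nitric oxide synthase, had 52.0, 30.7 and 19.6 CPM in Oxy@Lipo/Gel libraries and 99.96, 219 and 122 CPM in control libraries (edgeR adjusted p = 0.0768), and it passed without Oxy@Lipo/Gel replicate 1. IRF1, an interferon-response factor, had means of 30.4 ± 2.46 and 46.1 ± 5.79 CPM (SD, n = 3 each; edgeR adjusted p = 0.103). The neutrophil chemokine gene CXCL8 had 8.67, 4.84 and 4.55 CPM in Oxy@Lipo/Gel libraries, against 0.826, 2.37 and 2.99 CPM in control libraries (edgeR adjusted p = 0.157). MMP1, a collagenase, had means of 1.14 ± 0.922 and 0.204 ± 0.236 CPM (SD, n = 3 each, edgeR adjusted p = 0.170). The control libraries together held 10 counts of MMP1, near the limit of detection.

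Among the chaperones that hold the receptor, 1 of 14 tested genes fell and 0 rose, where 0.685% of all tested genes fell and 0.851% rose. BAG1, a nucleotide exchange factor of HSP70, fell to 31.4, 34.1 and 35.9 CPM in Oxy@Lipo/Gel libraries, against 61.1, 72.4 and 59.2 CPM in control libraries (log2 fold change -0.93 ± 0.14, edgeR adjusted p = 0.0401). With any 1 library left out it did not pass (edgeR adjusted p from 0.0536 to 0.227). DNAJB1, an HSP40, had means of 120 ± 32.7 and 188 ± 6.66 CPM, and STIP1, which links HSP70 to HSP90, 137 ± 19.6 and 202 ± 30.1 CPM (SD, n = 3 each), with edgeR adjusted p = 0.158 and 0.162. CDC37, an HSP90 partner for kinases, measured 192 ± 13.6 and 235 ± 38.2 CPM (edgeR adjusted p = 0.387). Of 15 nuclear receptor coregulators 0 passed edgeR and 0 had an unadjusted p under 0.05, and DESeq2 also called 0. The coactivators CRTC2 and NCOA3 and the corepressor NCOR1 had log2 fold changes of -0.40, -0.30 and -0.24 (edgeR adjusted p = 0.254, 0.260 and 0.314).

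Epithelial sodium transport, which answers to the mineralocorticoid receptor and SGK1, had 0 of 8 tested genes past edgeR. An unadjusted p under 0.05 was found for 2 of the 8, a share near the 23.3% of all tested genes, and DESeq2 called 1 of 8 genes it adjusted, near its 11.8% of all. The sodium channel subunits SCNN1A, SCNN1B and SCNN1G had log2 fold changes of -0.45 ± 0.20, -0.78 ± 0.36 and -0.86 ± 0.34 (SE), with edgeR adjusted p = 0.238, 0.247 and 0.198. Of 9 tested genes of steroid synthesis and clearance 0 passed edgeR. An unadjusted p under 0.05 was found for 2 of the 9, again near 23.3%, and DESeq2 called 1 of 10 genes it adjusted, near 11.8%. This was AKR1C1, an aldo-keto reductase that acts on steroids, with 72.2, 75.3 and 49.2 CPM in Oxy@Lipo/Gel libraries and 192, 99.0 and 355 CPM in control libraries (edgeR adjusted p = 0.114). AKR1C genes are near-identical copies, so its counts are uncertain. SRD5A1, a steroid 5-alpha reductase, measured 19.3 ± 4.87 and 28.2 ± 4.03 CPM (SD, n = 3 each; edgeR adjusted p = 0.211), and SRD5A2 and STAR stayed near 1 CPM or below on average (edgeR adjusted p = 0.361 and 0.356). The adrenal marker MC2R, the corticotropin receptor, had 0 counts in 5 of 6 libraries and 0.0475 CPM in control replicate 3.

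**Figure D4:**
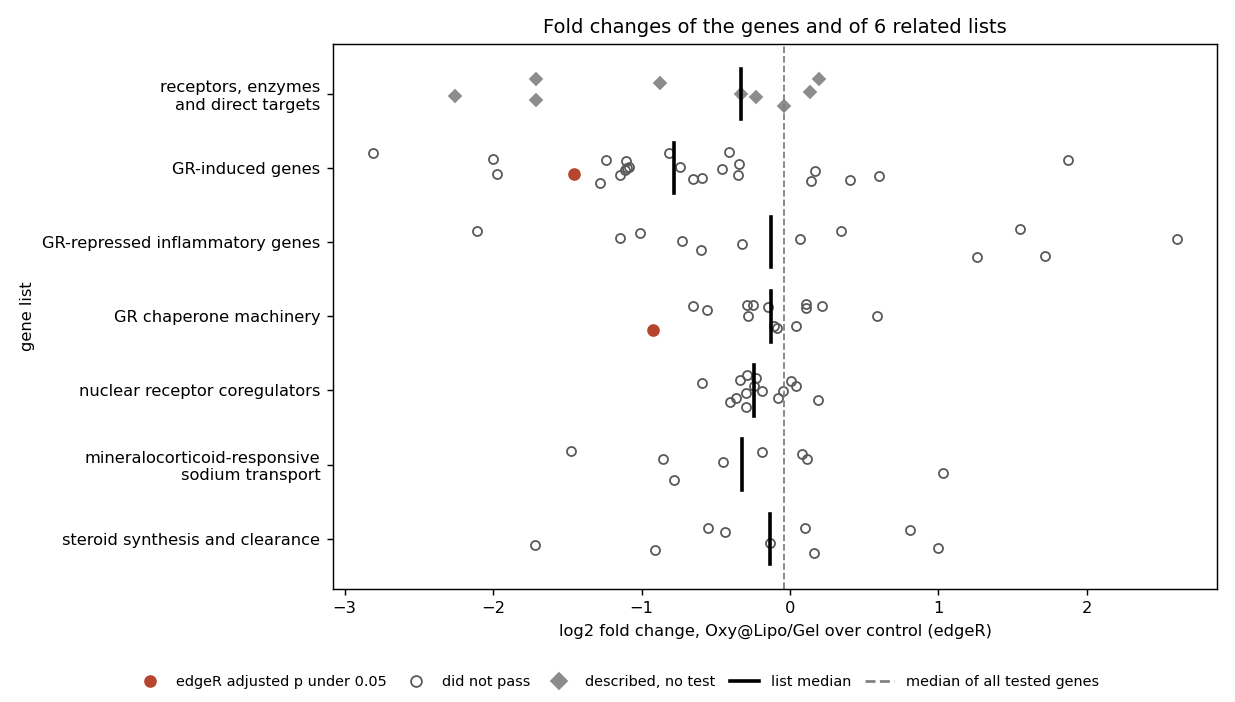
Log2 fold change, Oxy@Lipo/Gel over control (horizontal axis, edgeR), of 9 of the 10 genes (diamonds) and of the tested genes of 6 related lists (circles, 1 per gene, filled where the adjusted p is under 0.05), with vertical placement inside a row random. The median bar of the glucocorticoid-induced genes lies at -0.78, those of the other 5 lists between -0.32 and -0.13, and the dashed line marks the median of all tested genes at -0.04.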

How the data were processed

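Per the labels' protocols, poly(A)-selected RNA was made into strand-specific (dUTP) paired libraries. The authors deposited whole-number counts per gene and FPKM values, both per the file headers for 6 libraries. No source used here gives the aligner, counting program, annotation or use of strand, so overlapping genes may share counts. The submitters' processing notes list GRCm38, rheMac8 and Mmul_8.0.1, with no word on what each build was for, and no coordinates were used. In all 17796 genes whose lowest count was 5 or higher, counts and deposited FPKM gave 1 gene length, so the FPKM add no independent measurement.

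The members and lists were chosen with earlier results of these data known. edgeR 4.0.16 (R 4.3.3) was run on counts with TMM, filterByExpr (count 10, total 15), the quasi-likelihood F test on group alone, and Benjamini-Hochberg adjustment over 18676 genes, and was tested on simulated data. The SE is the size of the log2 fold change over the root of F. CPM use TMM library sizes, and log2 CPM for likeness and spread a prior count of 2. FPKM served levels between genes. Alternatives used DESeq2 1.42.0 and limma 3.58.1. Named were all members, in each list the called genes and the 4 with the smallest p, and the 5 nearest genes by likeness. FOS, EGR1, JUNB, ATF3, IER2, ERRFI1, CD163 and MC2R were named after their values were seen. Of the list genes MT2A, CYP11B1, HSD3B2, UGT2B15 and SULT2A1 were not analysed here, and some genes that the rule names are not reported here. No sequences were used here. No replicate pair was alike within sampling noise, with chi-square per degree of freedom of 48.7 or more. Intervals and floors cover counting error only.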

Additional observations from a re-analysis of the deposited data

How the results depend on the processing

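The log2 fold changes of NR3C1, NR3C2, FKBP5, TSC22D3, ZBTB16, KLF9 and SGK1 kept their sign in all 14 alternatives, and those of all 9 tested genes moved by less than the within-group SD. FKBP5 ran from -1.82 to -1.54, TSC22D3 from -1.86 to -1.50, ZBTB16 from -2.47 to -1.91, KLF9 from -1.03 to -0.67, DUSP1 from -0.28 to 0.93 and HSD11B2 from -0.38 to 0.17. Numbers of calls were less stable. Over all genes edgeR called 159 higher and 128 lower. With at least 10 counts in every library these were 39 and 31, with DESeq2 1404 and 1056, and with limma on log2(FPKM + 1) of every gene above 0 they were 73 and 52. Glucocorticoid-induced genes called numbered 1, against 2 with no filter on low counts, 0 with at least 10 counts in every library, 14 with DESeq2, 0 with limma on log2(FPKM + 1), 2 with log2(FPKM + 0.1) and 0 with every gene above 0. Of the 10 genes 3 were called, against 2 with at least 10 counts in every library, where ZBTB16 was not, and 4 with DESeq2, which added KLF9. DESeq2 called 11.8% of all genes it adjusted, where edgeR called 0.685% of all tested genes lower and 0.851% higher. As the 10 genes were chosen from this comparison, nothing is read from their calls in any setting. Chaperone genes called were 1, and 0 with at least 10 counts in every library. DESeq2 called 3 repressed inflammatory genes, 1 sodium transport gene and 1 steroid enzyme gene, where edgeR and limma on either FPKM scale called 0 of each. Leaving out 1 library gave 0 to 521 genes higher, 0 to 107 lower, 0 to 3 of the 10 genes called, 0 to 1 glucocorticoid-induced, 0 to 1 repressed inflammatory and 0 chaperone genes. The replicate number as a block left 0 genes higher, 0 lower, 0 of the 10 genes, 0 glucocorticoid-induced and 0 chaperone genes called, with 2866 at an unadjusted p under 0.05. The deviations of same-numbered libraries from their group means correlated at 0.23, -0.35 and -0.16 across genes, which are not independent replicates, so the numbers are not taken to pair the libraries. The cause of these changes was not tested. Depth limits HSD11B1, with 3 to 10 counts a library.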
